A study of Caenorhabditis elegans with 2 samples.

Results

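The locus described here holds php-3 and nob-1, the paired posterior Hox genes of the nematode Caenorhabditis elegans, and it was taken as 25 kb of chromosome III (ce11, chrIII:12072000-12097000). Members are all peaks of the deposited lists that overlap this window, chosen by position and not by their values. Of 3559 peaks in the larger list made from both replicates, 9 lay there. Over the 8 deposited lists the window held 161 entries of 312416, of which 132 stood in 4 ranked lists and 29 in the 4 thresholded lists drawn from them. All 29 overlapped one of the 9, which are called peak 1 to peak 9 from the php-3 side onward.

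The data were chromatin immunoprecipitation and sequencing (ChIP-seq) from 2 biological replicates of 1 group. Both were whole L4 larvae, 48 hours of age, of strain RW12213, synchronised as L1 larvae starved after bleaching. The strain carries st12213[php-3::TY1::EGFP::3xFLAG] on chromosome III, inserted by CRISPR at php-3 itself, and the immunoprecipitation used an anti-GFP antibody. No untagged strain and no input library was analysed here, and all tissues of the animal are mixed, so the cells behind a peak cannot be told apart. With 1 group there is no comparison between conditions, and with read depth unknown no value below carries a depth-based error.

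Hox genes encode homeodomain transcription factors that give cells their position along the body axis. The posterior group, related to Abdominal-B of Drosophila, acts toward the tail, and php-3 and nob-1 are neighbouring genes of this group in the worm. They act partly redundantly in the embryo, where loss of both disrupts the posterior body. Hox proteins bind short AT-rich sites, often beside a cofactor of the PBC class (Extradenticle in Drosophila) or the Meis class (Homothorax in Drosophila).

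Both genes are read from the minus strand, so higher coordinates are upstream. The gene php-3 (WBGene00004024) spans chrIII:12074218-12077556 with 4 exons, and nob-1 (WBGene00003779) spans chrIII:12077793-12084316 with 4 exons in its longest transcript. Only 236 bp separate the 5′ end of php-3 from the 3′ end of nob-1. The second intron of nob-1 is 4330 bp long. No annotated gene lies in the 14434 bp upstream of nob-1, up to linc-161, a long noncoding RNA gene. The window also holds the 3′ end of zyg-8, a doublecortin-family kinase gene.

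The sequence under the strongest peak of the locus, peak 5, carried closely spaced posterior Hox matches. It is shown first because the highest value of the locus stands there. The line gives chrIII:12084754-12085052 (ce11, plus strand), the summit with 149 bp to each side. Capitals mark matches, on either strand, to TTTATG or TTTACG (posterior Hox), TGATNNAT (Hox with a PBC cofactor) or TAATTA (homeodomain core).

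Peak 5: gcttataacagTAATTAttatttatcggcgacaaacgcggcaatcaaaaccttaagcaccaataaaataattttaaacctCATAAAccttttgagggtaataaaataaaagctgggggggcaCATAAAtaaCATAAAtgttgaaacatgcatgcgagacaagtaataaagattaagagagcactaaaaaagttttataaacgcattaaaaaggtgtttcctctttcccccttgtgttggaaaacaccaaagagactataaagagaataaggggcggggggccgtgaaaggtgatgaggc

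The next lines give the 101 bp around 4 other summits, with the same capitals. Peak 7 was second in signal, and peak 2 holds the other posterior match. Peak 3 was the third in signal with no capital, and peak 1 lies nearest the 3′ end of php-3. They are chrIII:12089076-12089176, chrIII:12080494-12080594, chrIII:12082358-12082458 and chrIII:12073872-12073972, all plus strand.
Peak 7: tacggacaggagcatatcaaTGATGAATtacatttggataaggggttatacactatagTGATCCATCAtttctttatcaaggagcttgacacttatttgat
Peak 2: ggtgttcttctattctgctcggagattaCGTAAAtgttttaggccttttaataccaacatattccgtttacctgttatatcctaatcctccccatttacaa
Peak 3: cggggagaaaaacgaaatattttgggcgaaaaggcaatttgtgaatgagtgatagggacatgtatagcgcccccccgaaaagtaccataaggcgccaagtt
Peak 1: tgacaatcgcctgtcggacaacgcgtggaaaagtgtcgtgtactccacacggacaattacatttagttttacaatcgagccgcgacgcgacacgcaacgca

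Within 50 bp of the summit, peak 5 held TTTATG as 2 reverse-strand copies, CATAAA at 12084876 to 12084881 and again at 12084885 to 12084890. Another copy, at 12084834 to 12084839, lay farther out. Peak 2 held TTTACG on the reverse strand, 17 bp from its summit. Peak 7 held 3 matches to TGATNNAT, of which 2 overlap on opposite strands at 12089134 to 12089143. In all, 2 of the 9 summits had a posterior match, against 18.9% of the 3559 summits of the list and 14.04% of 19973 protein-coding promoter windows, each the 101 bp before the outermost annotated 5′ end. TGATNNAT stood at 1 of 9 summits (9.16% of all summits, 7.96% of promoters), and TAATTA at none of the 9 (3.01% and 6.40%). The share of posterior matches at the locus was thus near the background at this width.

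With windows reaching 100 bp to each side, 7 of the 9 summits had a posterior match, against 30.8% of all summits and 27.2% of promoters. Those 7 were peaks 1, 2, 3, 4, 5, 7 and 9, and the matches added lay 48 to 90 bp from the summit at their nearest base. GATA-type sequences, AGATAA or TGATAA, stood within 50 bp of 4 summits (peaks 4, 6, 7 and 8), against 35.4% of all summits and 20.3% of promoters. A TATA-like TATAAA stood near peak 5 alone (9.05% of all summits), where it overlaps its own reverse-strand copy. A match is a run of letters and does not show that the protein binds there. The 9 windows had a median GC content of 36.6%, between 29.7% at peak 5 and 51.5% at peak 1, and the median over all summits was 41.6%.

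Peaks 2, 3 and 4 lay inside nob-1, 5 lay upstream of it, and 1 lay below php-3. Their summits spanned 21884 bp, with neighbours 1106 to 6622 bp apart. Windows of this width, tiled over the genome, held a mean of 0.888 summits, and 52.7% of 4007 tiles were empty. Only 2 tiles (0.0499%) held 9 summits or more, the highest count being 10, on chromosomes IV and X. The window here was drawn around the genes with this cluster already known, so its count is a description and not a test. The tile that falls over most of it, at a fixed offset, held 8.

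**Figure D1:**
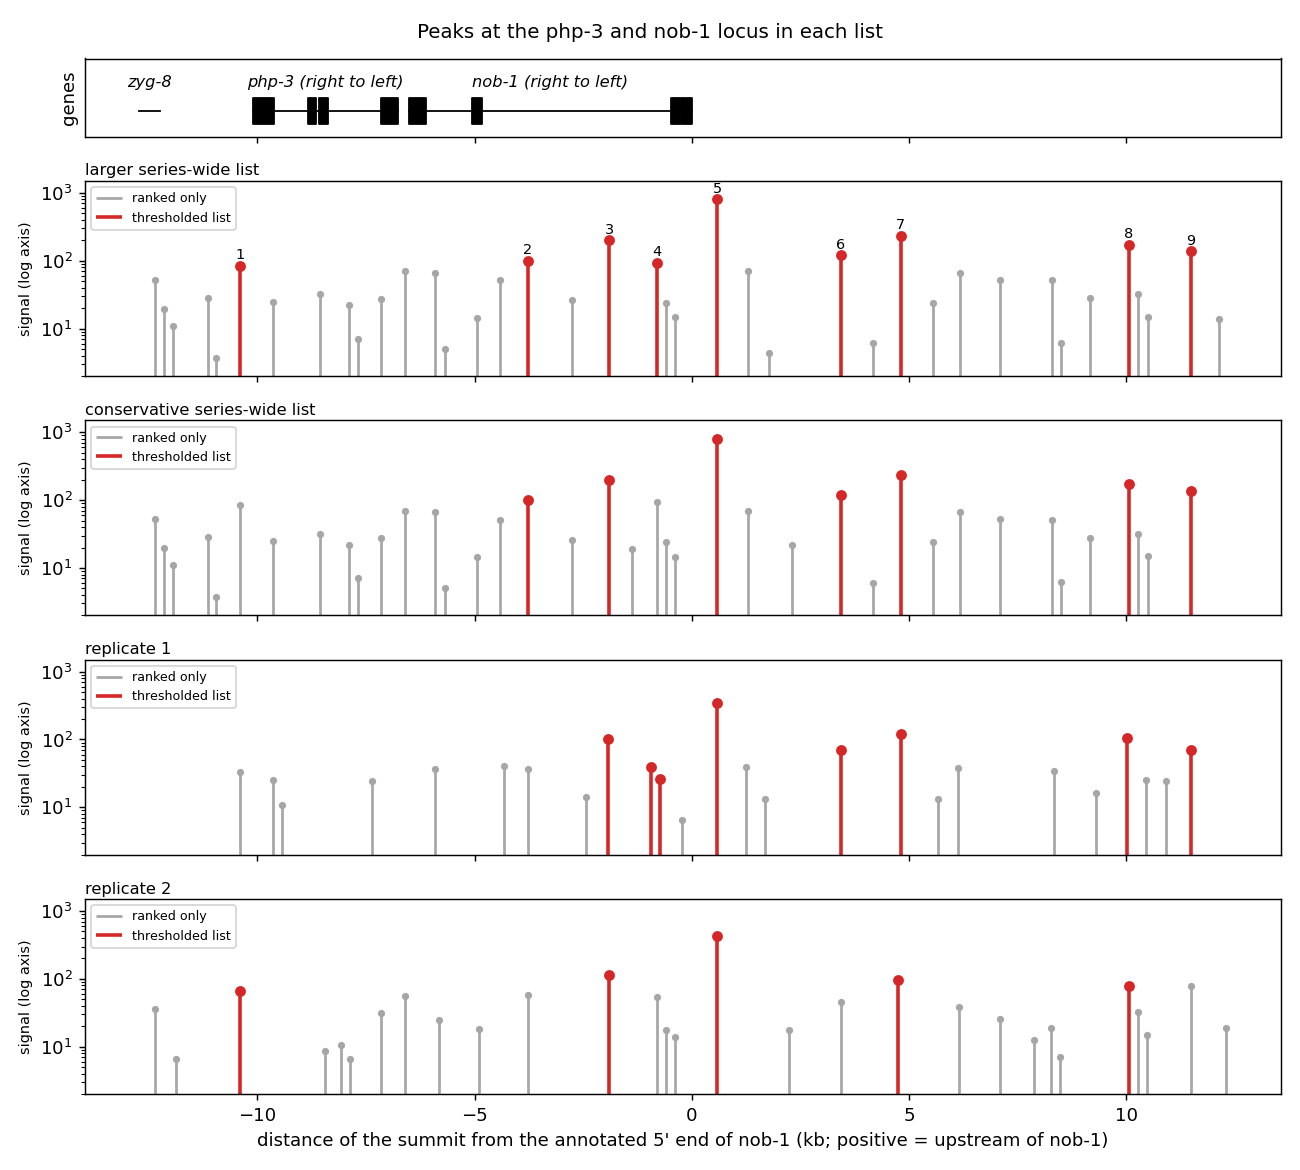
Signal of every ranked peak (log axis) against distance of its summit from the annotated 5′ end of nob-1 in kb, in the 4 ranked lists, with gene models above. Red stems are in the thresholded list drawn from that ranked list, grey stems are not. Peak 5, at 803 in the larger list, is the highest stem in all 4 panels, and no red stem stands in php-3.

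The signal value is the one that the authors' deposited lists give for each peak, on a scale not given in the sources used here. Ratios between the replicates describe these deposited values, which were not rescaled to each other. Peak 5 (chrIII:12084737-12085075), with its summit 587 bp upstream of the nob-1 5′ end, had a signal value of 803 in the larger list, the fourth of 3559. In replicate 1 its signal value was 350, and in replicate 2 it was 425. It was the fifth in both replicates' own thresholded lists, of 1728 and 2000 peaks. It was 3.45 times the next peak of the locus in the larger list, 2.87 times in replicate 1 and 3.78 times in replicate 2. The summits of the replicates lay 7 bp apart.

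Farther upstream of nob-1 stood 4 more peaks, in sequence with no annotated gene. Peak 6 (chrIII:12087585-12087908) lay 3431 bp upstream and had a signal value of 120 in the larger list, 71.1 in replicate 1 and 45.0 in replicate 2. Peak 7 (chrIII:12089070-12089185), 4810 bp upstream, had 233, with 122 in replicate 1 and 94.9 in replicate 2. These were higher in replicate 1, against the direction of most peaks of the list. Peak 8 (chrIII:12094214-12094537), 10060 bp upstream, had 172, with 106 in replicate 1 and 78.5 in replicate 2, and so was also higher in replicate 1. Peak 9 (chrIII:12095644-12095967), 11490 bp upstream, had 138, with 70.1 in replicate 1 and 79.7 in replicate 2. The 5′ end of linc-161, which is not protein-coding, lies nearer to peak 8 (5101 bp) and peak 9 (3671 bp) than that of nob-1. Among protein-coding genes, the nearest gene body to both was that of cest-12, 7369 bp from peak 8 and 5939 bp from peak 9. Peak 7 was the narrowest of the 9 at 116 bp in the larger list, but 284 bp wide in replicate 1 and 300 bp in replicate 2. In the larger list 89.07% of peaks, and 7 of the 9, were exactly 324 bp wide. The summits of peak 7 differed by 73 bp between the replicates, whereas those of peak 9 differed by 1 bp.

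Inside nob-1, all 3 peaks fell in the second intron, between exons 2 and 3. Peak 4 (chrIII:12083352-12083675), 802 bp downstream of the 5′ end, had a signal value of 92.8 in the larger list, 39.0 in replicate 1 and 54.4 in replicate 2. Peak 3 (chrIII:12082246-12082569), 1908 bp downstream, had 198, with 103 in replicate 1 and 112 in replicate 2. Peak 2 (chrIII:12080382-12080705), 3772 bp downstream, had 99.0, with 36.2 in replicate 1 and 58.4 in replicate 2. Peak 3 was thus the strongest of the intron in each list. Peak 2 is nearer the php-3 5′ end (2988 bp) than the outermost nob-1 5′ end. A shorter annotated nob-1 isoform starts 1109 bp from it, so the assignment of this peak to a gene depends on the isoform chosen.

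Peak 4 met 2 overlapping peaks in the ranked list of each replicate. In replicate 1, chrIII:12083231-12083514 had a signal value of 39.0 and chrIII:12083440-12083723 had 26.2, and both had the full score of 1000. In replicate 2, chrIII:12083359-12083658 had 54.4 and chrIII:12083564-12083863 had 17.7, and neither was kept. The conservative ranked list paired the weaker replicate 1 peak with the replicate 2 peak of 54.4, and gave the pair a score of 390. The summit of the stronger replicate 1 peak lay 136 bp from that of the stronger replicate 2 peak, the widest gap of the 9 peaks. Peak 8 also met 2 ranked peaks in replicate 2.

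At php-3, the tagged gene, the larger list held no peak in the gene body or in the 236 bp before its 5′ end. Peak 1 (chrIII:12073760-12074083) had its summit 296 bp beyond the annotated 3′ end of php-3 and 684 bp from the stop codon. Its signal value was 84.0 in the larger list, the lowest of the 9, with 32.8 in replicate 1 and 65.8 in replicate 2. Replicate 2 was 2.00 times replicate 1 there, the widest ratio of the 9 with the highest overlapping signal taken at each peak. At peak 4, the conservative ranked list paired the weaker replicate 1 peak (26.2) with the replicate 2 peak of 54.4. Taken that way, peak 4 had the wider ratio. The median ratio over the 3493 peaks of the list with a signal in both replicates was 1.14.

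Peak 1 was also the only one of the 9 with repeated sequence. Of its 289 stretches of 36 bases, 170 (58.8%) occurred once in the reference genome, and the others occurred up to 113 times. All such stretches of peaks 2 to 9 occurred once. How long the reads were, and what was done with those that map to several places, is unknown here. The part of the repeat in this peak was not tested.

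The deposited label writes the tag after php-3, the usual notation for a fusion at the C-terminal end, and gives no insertion coordinate. The php-3 stop codon is at chrIII:12074606-12074608, and a ranked peak, chrIII:12074505-12074828, covers it. Its signal value was 24.7 in the larger ranked list, with a score of 38, and 25.7 in replicate 1's list, while replicate 2's list held no peak over the stop codon. Over the whole php-3 gene body the larger ranked list held 5 peaks, of signal 7.08 to 32.1, with a highest score of 82, and the conservative ranked list gave a highest score of 328 there. In replicate 1's ranked list there were 3 (11.0 to 25.7) and in replicate 2's there were 4 (6.66 to 31.1), with highest scores of 96 and 246. All were below the signal of every one of the 9 peaks in the same replicate or list.

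Between php-3 and nob-1 stood the peak that came closest to the threshold of the larger list, chrIII:12077556-12077879. Its summit lay 162 bp upstream of php-3. It had a signal value of 69.7 and a score of 705 in the larger ranked list, against 88 in the conservative one. Replicate 2's ranked list gave it 56.6 and a score of 632, and replicate 1's own list held no peak there. The 101 bp around its summit, chrIII:12077668-12077768 (ce11, plus strand), are given because they are the php-3 promoter sequence closest to the threshold, and they hold none of the Hox-type matches.
php-3 upstream: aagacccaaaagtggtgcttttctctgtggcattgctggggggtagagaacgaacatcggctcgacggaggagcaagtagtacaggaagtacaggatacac

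In replicate 1 the order of the 9 by signal was 5, 7, 8, 3, 6, 9, 4, 2, 1, and in replicate 2 it was 5, 3, 7, 9, 8, 1, 2, 4, 6. Peaks 5, 7, 3, 8 and 9 thus made up the top 5 of the larger list and of replicate 2, while in replicate 1 peak 6 took the place of peak 9 there. Replicate 2 was higher at 6 of the 9 peaks and replicate 1 at 3. The median log2 ratio of replicate 2 to replicate 1 was 0.19 (range −0.66 to 1.00), and over the 3493 peaks of the list with a value in both it was also 0.19. The upper end of the range at the locus depends on which replicate 1 peak is taken at peak 4. Of the 3493 peaks, 2351 were higher in replicate 2. Peak 6, at −0.66, lay below the 5th percentile of all peaks (−0.61), and peak 1, at 1.00, above the 95th (0.98).

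**Figure D2:**
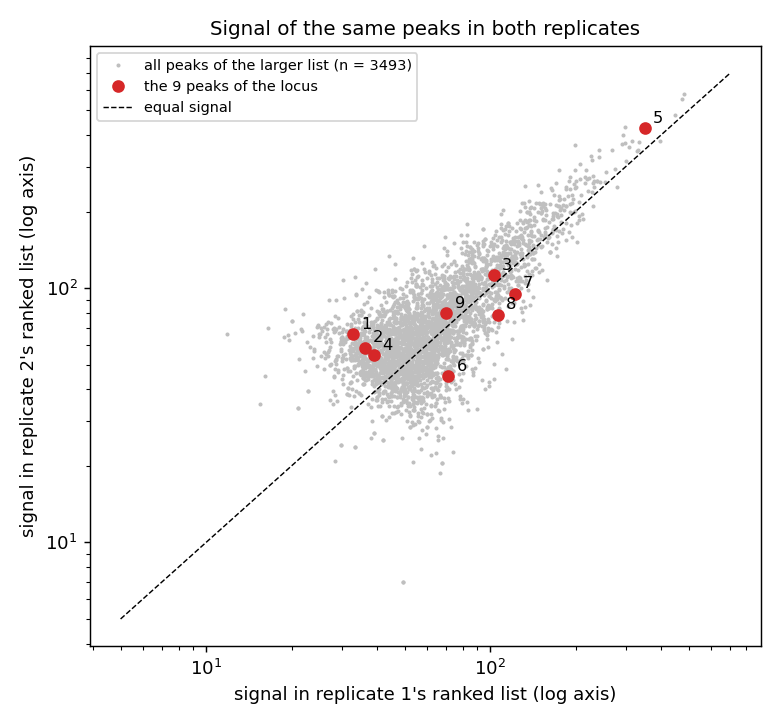
Signal in replicate 1's ranked list against that in replicate 2's, both on log axes, for the 3493 peaks of the larger list found in both (grey) and the 9 peaks of the locus (red, numbered). Peak 5, at 350 and 425, is among the highest points, and peaks 6, 7 and 8 lie below the dashed line of equal signal.

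The score runs to 1000 and is scaled from the IDR, the irreproducible discovery rate. This rate estimates how likely a peak is not to be reproduced between paired lists, and a higher score stands for a lower rate. No peak under 830 was kept in any thresholded list. In the larger list all 9 peaks had a score of 1000, as did 76.1% of the whole list, so the score does not order them there. The other lists separated them. Peaks 3, 5, 7 and 8 had 1000 in all 4 ranked lists. Peak 6 had 1000 in replicate 1 and 358 in replicate 2. Peak 9 had 1000 in replicate 1 and 691 in replicate 2, although its signal was higher in replicate 2.

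Peak 1 went the other way, with 251 in replicate 1, 879 in replicate 2 and 743 in the conservative list. Peak 2 had 58 and 711 in the replicates, below the threshold in both, but 867 in the conservative list. Peak 4 had 1000 in replicate 1, 771 in replicate 2 and 390 in the conservative list. Peaks 1, 2 and 4 were also the 3 of lowest signal in the larger list and in replicate 1.

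**Figure D3:**
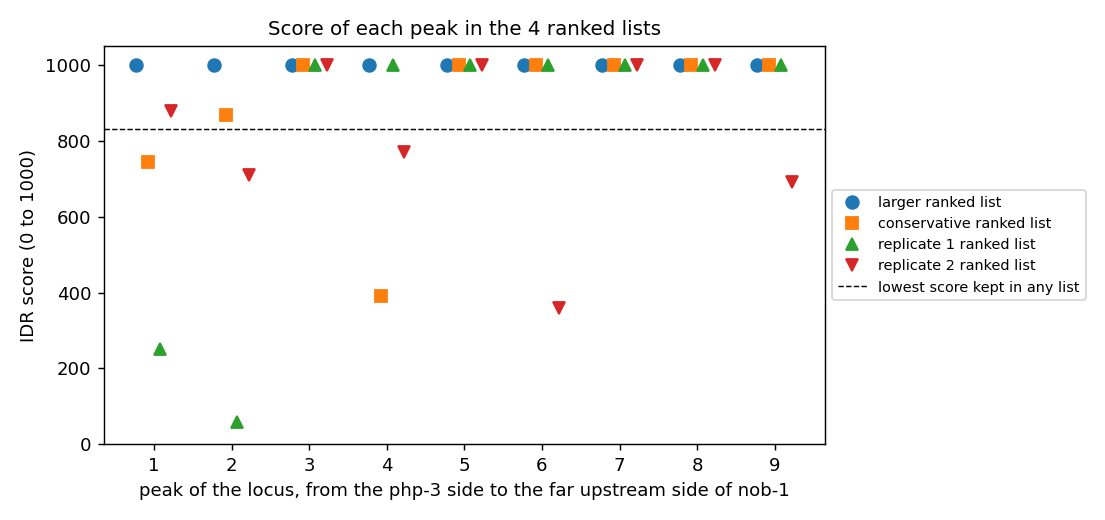
Score (0 to 1000) of each of the 9 peaks in the 4 ranked lists, with the lowest score kept in any thresholded list, 830, as a dashed line. For a replicate the value is that of its overlapping peak of highest signal. Peaks 3, 5, 7 and 8 have 1000 in all 4, and peaks 1, 2 and 4 fall below the line in 2 lists each.

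Of the 9 peaks, 7 were in replicate 1's own thresholded list, against 46.1% of the whole larger list. In replicate 2's own list there were 5, against 53.2%. Peaks 3, 5, 7 and 8 were in both (35.3% of all peaks were), and peak 2 was in neither (36% of all peaks). The conservative list kept 7 of the 9 as the same interval, leaving out peaks 1 and 4, against 83.6% of all peaks. All 5 peaks upstream of nob-1 were in the conservative list and in replicate 1's list, and 3 of them were in replicate 2's. With 9 peaks these counts are too few to set the locus apart from the list.

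The larger ranked list held 39 peaks in the window, and 9 of them (23.1%, exact binomial 95% interval 11.1 to 39.3, counting error only) were kept, against 3.71% of all 96056 ranked peaks. In replicate 1, 8 of 25 ranked peaks were kept (32.0%, interval 14.9 to 53.5), against 3.44%, both overlapping peaks at peak 4 among them. In replicate 2, 5 of 29 were (17.2%, interval 5.85 to 35.8), against 3.36%, and in the conservative list 7 of 39 (17.9%, interval 7.54 to 33.5), against 3.65%. Some neighbouring ranked peaks overlap, so they are not independent, and the window was drawn with the cluster known. The shares and intervals are therefore descriptions and not tests against the whole lists. The median signal of all ranked peaks in the window, kept ones included, was 28.4 in the larger list, against 28.5 over that whole list. In replicate 1 it was 34.5 against 22.1, and in replicate 2 it was 25.9 against 22.2. The 30 that were not kept ran from 3.73 to 69.7 in the larger list. Kept and other peaks of the window thus did not overlap in signal there. In replicate 1 they did, since the weaker part of peak 4 was kept at 26.2 while a peak at 41.0 was not. They did in replicate 2 as well, where the lowest kept was peak 1 at 65.8 and peak 9, at 79.7, was not kept.

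The median signal of the 9 peaks was 138, against 120 over the larger list, and 5 of the 9 were above that list's median. Replicate 1's 8 peaks had a median of 87.1, against 81.4, and replicate 2's 5 had 94.9, against 85.9. The conservative list's 7 had 172, against 121, with 5 of the 7 above that list's median.

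Other Hox genes and cofactor genes, viewed in windows of the same width centred on each gene, each held fewer peaks of the larger list than the 9 found here. There was none at ceh-13, an anterior-group gene, none at mab-5 and none at egl-5, the other posterior-acting gene. The gene lin-39, which acts in the midbody, had 2, at 130 and 26.5. Of the cofactors, the PBC-class gene ceh-60 had 8 peaks, of signal 4.70 to 393. The PBC-class gene ceh-20 had 5, of 8.82 to 126. These counts, and that of lin-39, include peaks weaker than the lowest of the 9 here, at 84.0. The Meis-class gene unc-62 had 1, at 143, and psa-3, also of that class, had 2, the higher at 1053, while ceh-40 had none. Peaks in these windows may belong to neighbouring genes. The php-3 and nob-1 window was not centred on a gene and reaches far upstream of nob-1. Centred on nob-1, a window of this width would not reach peaks 8 and 9. No count was made in such a window, so the lead over ceh-60 may depend on the placement.

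**Figure D4:**
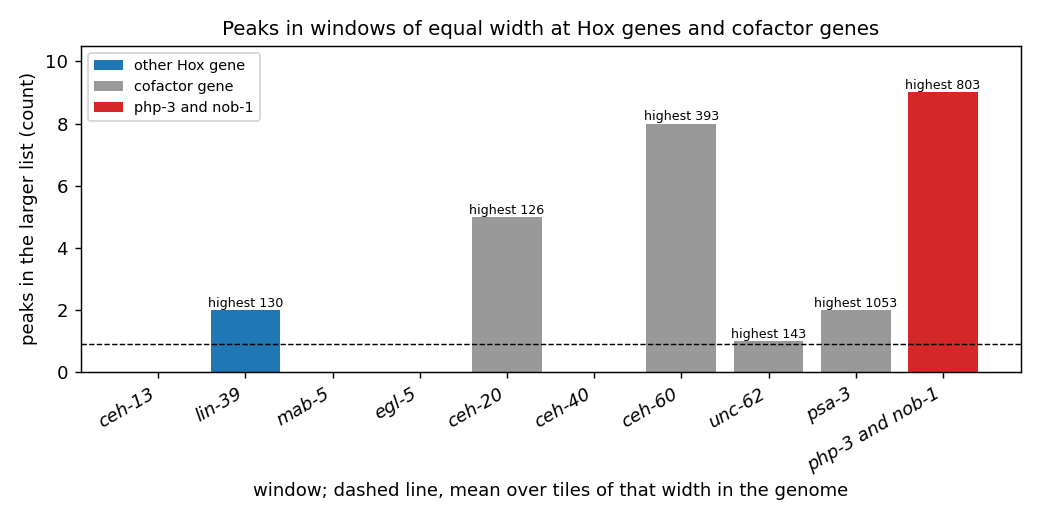
Number of peaks of the larger list in 25 kb windows centred on each listed gene (blue, other Hox genes, grey, cofactor genes) and in the php-3 and nob-1 window (red), with the highest signal above each bar. The dashed line is the mean over tiles of the genome, 0.888, and the locus has 9 peaks against 0 to 8 in the other windows. The red window is not centred on a gene.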

How the data were processed

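The authors deposited peak lists in ce11 coordinates, per the labels and the listing of files. The signal value, the score and the −log10 q value of each peak are as the authors deposited them, and −log10 q was not used for a result. No aligner or peak caller is named in the sources used here. The larger and the conservative list are made from both replicates. Each ranked list was tied to the thresholded list whose intervals and scores it holds. Replicate values at a peak are the highest signal of any peak in that replicate's ranked list overlapping it by at least 1 bp.

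Genes came from Ensembl release 115 and sequence from the RefSeq genome of WBcel235, and 0 peaks ended beyond a chromosome. The 7 motifs were searched on both strands. Scripts ran in Python 3.11.15 with pandas 2.3.3, numpy 2.4.6, matplotlib 3.10.9 and scipy 1.17.1, and the matching and motif functions were tested on simulated data. No test was made, since 2 samples of 1 group allow none. Named items are both genes, all other annotated genes of the window, the 9 peaks and the listed Hox and cofactor genes. The neighbours linc-161 and cest-12 are also named. The window, genes and motifs were chosen with earlier results of these data known. Alternatives were other lists, window membership, merging, a lower score, other matching, gene bodies and motif widths.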

Additional observations from a re-analysis of the deposited data

How the results depend on the processing

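Of 38 alternative values, 29 stayed close to the reported one, that is within 1.5 times for a count, the binomial interval for a share and the spread between replicates or peaks for a signal. Many of these could not have moved. None of the 9 peaks crosses the edge of the window or overlaps another, so window membership and merging left their values unchanged. The tally is thus no measure of how firm the results are. The peak count was 7 in the conservative list and ran from 5 (without replicate 1) to 8 (without replicate 2). The median signal was 172 in the conservative list, which leaves out peaks 1 and 4 and gives the others the same signal. It was 87.1 to 94.9 without a replicate, and the highest signal was then 350 to 425, each from the remaining replicate's own list. Over all peaks the median was also lower there, at 81.4 in replicate 1 and 85.9 in replicate 2, against 120 in the larger list. These signal values therefore cannot show how far the locus depends on a replicate. Among protein-coding genes, nob-1 had the 5′ end closest to 4 of 5 peaks without replicate 1 and 8 of 8 without replicate 2, against 7 of 9. The 8 include both overlapping replicate 1 peaks at peak 4. By distance to the gene body nob-1 was nearest to 6 of 9, with peaks 8 and 9 nearest cest-12, outside the window. Posterior Hox matches stood at 7 of 9 summits with 100 bp to each side, against 2 with 50 bp, and at 1 and 2 summits without replicates 1 and 2. The share of ranked peaks kept ran from 17.2% to 32.0%. No paired analysis was possible because both replicates form 1 group. Read depth is unknown, so weak peaks cannot be told from missing ones.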
